A study of Homo sapiens with 6 samples.

Results

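The genes described here encode 10 RNA-binding proteins that choose between alternative exons and whose levels differ between tissues: the polypyrimidine tract-binding proteins PTBP1, PTBP2 and PTBP3, the muscleblind-like proteins MBNL1, MBNL2 and MBNL3, the CELF proteins CELF1 and CELF2, the STAR protein QKI and the Fox protein RBFOX2. They were taken by symbol from the deposited table of 57150 genes. All 10 were found, each in 1 row, and all 10 averaged at least 1 FPKM over the libraries and so were among the 13343 genes tested. FPKM expresses a level as sequenced fragments per unit of transcript length, relative to the total mapped in that library. RNA came from MDA-MB-435, a human cancer cell line in long use, in 2 groups of 3 libraries each. The ZCCHC24 KD group (KD) had reduced ZCCHC24, a CCHC-type zinc finger gene, and the ZCCHC24 CTRL group (CTRL) was its control. The sources used here do not give how the knockdown was made, whether it used 1 clone or whether libraries came from separate cultures, and p-values therefore cover variation between libraries that may be technical.

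These proteins bind short motifs in pre-mRNA near an exon and favour its inclusion or its skipping, often depending on which side of the exon they bind. PTBP1 is the form of most dividing cells and PTBP2 that of developing neurons, and PTBP1 keeps PTBP2 low by making the PTBP2 transcript skip a short exon, which exposes it to nonsense-mediated decay. MBNL and CELF proteins act against each other on many exons of muscle and heart, and their balance is disturbed in myotonic dystrophy. QKI is known from myelinating glia and from mesenchymal cells, and RBFOX2 is the most widely expressed Fox protein.

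Short exons of these genes are shown, some of which are known to serve control of the genes by themselves or each other. The deposited values are sums over each gene and so do not say whether an exon was used. In each PTBP gene, a GENCODE internal exon of 34 bases, which is not a multiple of the reading frame, corresponds to the exon whose skipping leads to decay in PTBP1 and PTBP2. The PTBP1 exon lies on the plus strand at chr19:807869-807902, the PTBP2 exon on the plus strand at chr1:96806419-96806452 and the PTBP3 exon on the minus strand at chr9:112231380-112231413 (GRCh38). The PTBP2 and PTBP3 exons were each taken as the one of this length most similar to that of PTBP1. The sequences are from GENCODE transcripts, and capitals mark bases that differ from PTBP1, which are 9 in PTBP2 and 12 in PTBP3.
PTBP1: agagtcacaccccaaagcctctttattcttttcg
PTBP2: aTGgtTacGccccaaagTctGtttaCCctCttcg
PTBP3: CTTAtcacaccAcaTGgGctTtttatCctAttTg

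MBNL1 has an alternative exon of 54 bases, on the plus strand at chr3:152446704-152446757, that MBNL proteins themselves make the transcript skip and that adds a nuclear localization sequence. All 3 MBNL genes also share an exon of 36 bases, at chr3:152455542-152455577 in MBNL1, chr13:97365136-97365171 in MBNL2 and, on the minus strand, chrX:132384663-132384698 in MBNL3. The MBNL2 and MBNL3 exons were each taken as the one of this length most similar to that of MBNL1. Exons of 54 and 36 bases both keep the reading frame. Capitals mark bases of the shorter exon that differ from MBNL1, which are 5 in MBNL2 and 7 in MBNL3.
MBNL1, 54 bases: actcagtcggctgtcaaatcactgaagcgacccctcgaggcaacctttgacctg
MBNL1, 36 bases: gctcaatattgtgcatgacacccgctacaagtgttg
MBNL2, 36 bases: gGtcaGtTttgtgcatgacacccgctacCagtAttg
MBNL3, 36 bases: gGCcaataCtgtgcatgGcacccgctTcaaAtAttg

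ZCCHC24 was at 1.54, 1.69 and 1.81 FPKM in the KD libraries against 12.7, 12.3 and 13.2 FPKM in the CTRL libraries, so the targeted gene followed the labels. Steps between the lowest values put the value of 1 fragment in the shallowest library at 1.27 times that in the deepest, while absolute depth is unknown. The labelled tissue is breast. All 8 melanocyte markers looked up, MITF and SOX10 among them, had means of at least 10 FPKM. Of 8 breast epithelial markers, 5 had means of at least 1 FPKM. The keratins KRT8 and KRT18 were higher in KD by limma, while KRT19, EPCAM and CDH1 had lower KD means and did not pass. ESR1 and GATA3 were under 1 FPKM in every library and KRT5 was listed at 0. The sum of the 8 ran from 140 to 149 FPKM in KD and from 98.1 to 115 FPKM in CTRL. Most of it was KRT8, averaging 44.8 FPKM in KD and 27.5 FPKM in CTRL, and KRT18, averaging 90.8 and 70.4 FPKM. The summed melanocyte markers ran from 1486 to 1551 FPKM in KD and from 2153 to 2253 FPKM in CTRL. By limma TYR did not pass and each other melanocyte marker was lower in KD. PMEL fell most, averaging 19.5 FPKM in KD and 89.5 FPKM in CTRL. Of 6 neuronal markers, RBFOX3, ELAVL3 and ELAVL4 were under 0.2 FPKM in every library. TUBB3 and MAP2 were lower and SYP higher in KD by limma, and the sum of the 6 ran from 48.1 to 51.9 FPKM in KD and from 57.5 to 60.3 FPKM in CTRL. All 5 muscle markers were under 1 FPKM in every library, with a sum of 0.260 to 0.498 FPKM in KD and 0.465 to 0.991 FPKM in CTRL. The part of these markers in the results was not tested.

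Of the 10 regulators, 3 rose in KD cells (PTBP2, RBFOX2 and CELF1), 4 fell (CELF2, MBNL3, MBNL1 and QKI) and 3 did not pass the test (PTBP1, MBNL2 and PTBP3). The test was limma on log2(FPKM + 1), with Benjamini-Hochberg adjustment over the 13343 genes and a threshold of 0.05. By the same test 72.4% of all tested genes were called, 37% higher and 35.4% lower, so a share of 7 in 10 is near the background. The groups did not overlap for 7 of the 10, beside 75.9% of all tested genes. The median absolute change was 0.40 on the log2 scale for the 10 regulators and 0.41 for all tested genes. Within each family the calls differed between members. In RNA from whole cultures, fewer cells of a type and less RNA per cell cannot be told apart.

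**Figure D1:**
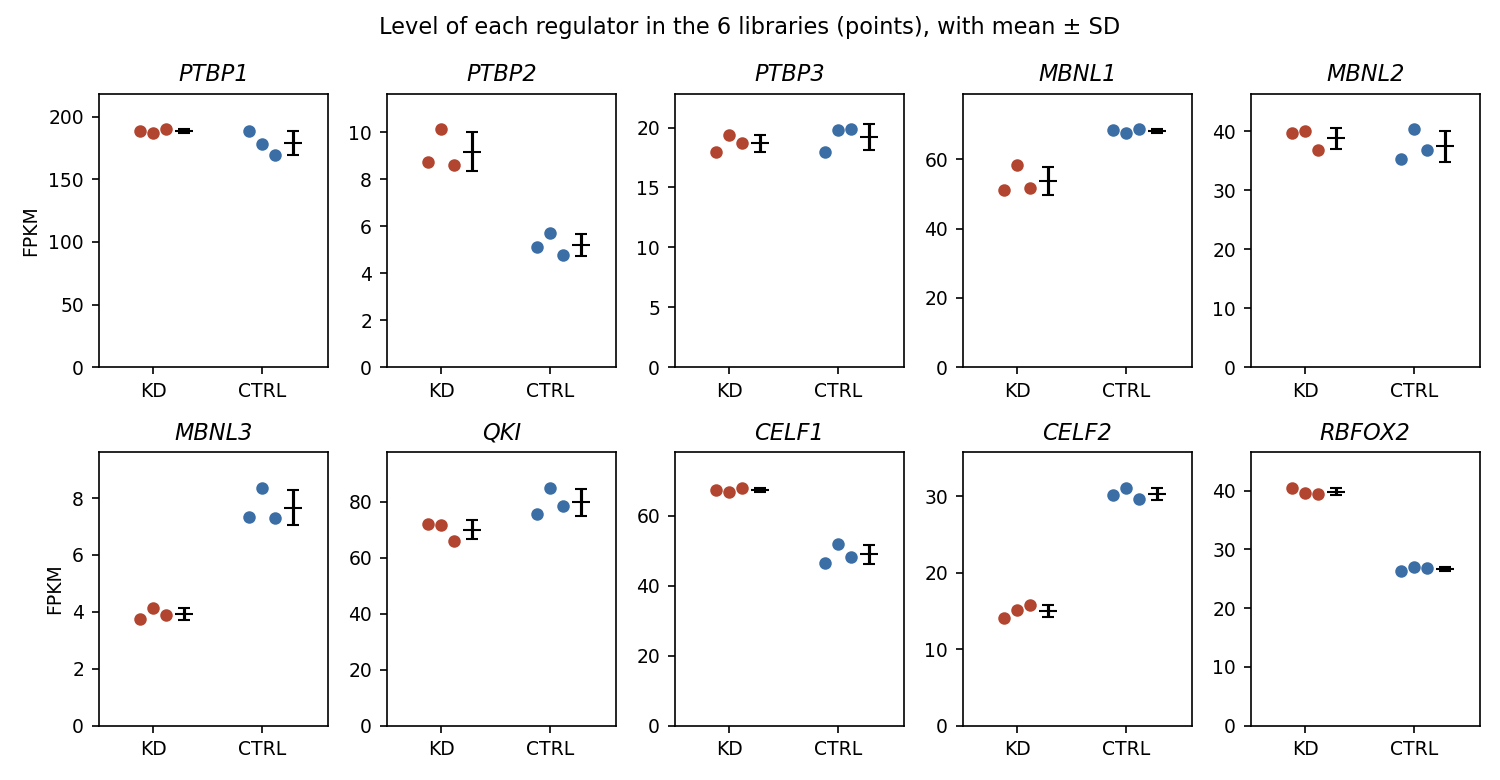
FPKM of each regulator (vertical axes start at 0) in the 3 KD and 3 CTRL libraries, shown as points, with the mean and SD beside them. The groups are apart for PTBP2, MBNL1, MBNL3, QKI, CELF1, CELF2 and RBFOX2 and overlap for PTBP1, PTBP3 and MBNL2.

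PTBP1, the general repressor of neuronal and muscle exons, was the most abundant of the 10, above 95.9% of tested genes when averaged over all libraries. It was at 189, 187 and 190 FPKM in KD and at 188, 179 and 169 FPKM in CTRL. The groups overlapped, and the log2 difference of 0.08 ± 0.04 (SE; 95% interval -0.02 to 0.18) did not pass (limma adjusted p = 0.13). Without CTRL replicate 1, the highest control, the difference was 0.12 and passed (limma adjusted p = 0.024).

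PTBP2, the neuronal paralog that PTBP1 represses, was at 8.75, 10.1 and 8.63 FPKM in KD and at 5.14, 5.71 and 4.79 FPKM in CTRL. Every KD library lay above every CTRL library. The mean rose 1.76-fold, to 9.17 ± 0.836 FPKM in KD against 5.21 ± 0.461 FPKM in CTRL (SD, n = 3 each), a log2 change of 0.71 ± 0.09 (SE) with a limma adjusted p of 0.00013. Even so, PTBP2 remained a small part of the family, with 4.23% ± 0.385 of the summed PTBP FPKM in KD and 2.57% ± 0.201 in CTRL. The ratio of PTBP2 to PTBP1 was 0.0486 ± 0.0048 in KD and 0.0292 ± 0.00246 in CTRL, with no overlap between libraries.

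PTBP3, a paralog known from blood cells, was at 18.0, 19.4 and 18.7 FPKM in KD and at 18.0, 19.8 and 19.9 FPKM in CTRL. The groups overlapped, with a log2 difference of -0.04 ± 0.06 (SE; 95% interval -0.17 to 0.10; limma adjusted p = 0.57). Its ratio to PTBP1 also overlapped between groups, at 0.0989 ± 0.00424 in KD and 0.108 ± 0.0111 in CTRL. The summed FPKM of the 3 PTBP genes was 217 ± 0.842 in KD and 203 ± 8.67 in CTRL. The pseudogene PTBP1P was listed at 0 in all 6 libraries.

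MBNL1, which promotes adult forms of muscle exons, was at 51.0, 58.4 and 51.6 FPKM in KD and at 68.3, 67.6 and 68.6 FPKM in CTRL. The KD libraries were all lower, and KD replicate 2 was nearest to the controls. The mean fell to 53.7 ± 4.12 FPKM in KD against 68.2 ± 0.55 FPKM in CTRL (SD, n = 3 each), 78.7% of the control level, with a log2 change of -0.34 ± 0.06 (SE; limma adjusted p = 0.00069). Another gene listed in the same locus, AC106722.1, averaged 1.30 FPKM over the 6 libraries, and a Y RNA there was listed at 81.6 FPKM in KD replicate 3 and at 0 in the others.

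MBNL2, the paralog best known from brain, was at 39.7, 40.0 and 36.7 FPKM in KD and at 35.2, 40.3 and 36.7 FPKM in CTRL. The groups overlapped, and the log2 difference was 0.05 ± 0.06 (SE; 95% interval -0.09 to 0.19; limma adjusted p = 0.47). With MBNL1 lower, the ratio of MBNL2 to MBNL1 was 0.725 ± 0.0474 in KD and 0.549 ± 0.0424 in CTRL, without overlap.

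MBNL3, the paralog that opposes muscle differentiation in mouse cells, was at 3.74, 4.15 and 3.89 FPKM in KD and at 7.34, 8.36 and 7.28 FPKM in CTRL. All KD libraries were far under all CTRL libraries. The mean fell to 3.93 ± 0.209 FPKM in KD against 7.66 ± 0.607 FPKM in CTRL, 51.2% of the control level, with a log2 change of -0.81 ± 0.08 (SE; limma adjusted p = 3.5e-05). Its ratio to MBNL1 did not overlap between groups, at 0.0733 ± 0.00213 in KD and 0.112 ± 0.00982 in CTRL. The table lists MBNL3 in the same locus as RAP2C, a small GTPase gene, which rose to 28.6 ± 3.98 FPKM in KD against 22.9 ± 0.879 FPKM in CTRL (limma adjusted p = 0.017). RP5-842K24.2, also listed there, was at 0.183 ± 0.041 FPKM in KD and 0.593 ± 0.13 FPKM in CTRL, too low to be tested.

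The 3 MBNL genes together came to 96.4 ± 5.47 FPKM in KD and 113 ± 2.75 FPKM in CTRL, a ratio of 0.851. MBNL1 made up 55.6% ± 1.48 of this sum in KD and 60.2% ± 1.85 in CTRL. MBNL2 made up 40.3% ± 1.55 in KD and 33.0% ± 1.5 in CTRL.

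CELF2, known from lymphocytes, brain and heart, had the largest fitted change of the 10, larger in size than that of 86.5% of all tested genes. It was at 14.1, 15.1 and 15.7 FPKM in KD and at 30.2, 31.1 and 29.6 FPKM in CTRL. The KD libraries clustered near a common level well under the controls. The mean fell to 15.0 ± 0.809 FPKM in KD against 30.3 ± 0.776 FPKM in CTRL (SD, n = 3 each), 49.5% of the control level, with a log2 change of -0.97 ± 0.05 (SE; limma adjusted p = 1.6e-06). The antisense genes CELF2-AS1 and CELF2-AS2 shared its listed locus, and no library reached 0.03 FPKM of either.

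CELF1, which also promotes decay of mRNAs rich in GU elements, was at 67.2, 66.8 and 68.0 FPKM in KD and at 46.6, 51.9 and 48.3 FPKM in CTRL. Its direction was opposite to that of CELF2. The mean rose 1.38-fold, to 67.3 ± 0.617 FPKM in KD against 48.9 ± 2.73 FPKM in CTRL, with a log2 change of 0.45 ± 0.05 (SE; limma adjusted p = 5.1e-05). The listed locus of CELF1 also holds NDUFS3, PTPMT1 and KBTBD4, each above 1 FPKM. PTPMT1 fell (log2 change -0.42) and KBTBD4 rose (0.32), while NDUFS3 did not pass (0.01; limma adjusted p = 0.90). Another KBTBD4 entry in this locus averaged 0.187 FPKM in KD and 0.415 FPKM in CTRL, too low to be tested.

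The ratio of CELF2 to CELF1 was 0.222 ± 0.0111 in KD and 0.620 ± 0.0249 in CTRL, a difference of -1.48 on the log2 scale. CELF2 supplied 18.2% ± 0.742 of the FPKM of both genes in KD and 38.2% ± 0.945 in CTRL, while their sum was 82.3 ± 1.25 FPKM in KD and 79.2 ± 3.4 FPKM in CTRL. Of the other CELF genes, CELF3, CELF4 and CELF5 were under 0.2 FPKM in every library, and CELF6 was at 1.14 ± 0.15 FPKM in KD and 0.506 ± 0.123 FPKM in CTRL, too low to be tested.

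MBNL1 and CELF1, from families known to act against each other, changed places. The ratio of MBNL1 to CELF1 was 0.759, 0.875 and 0.759 in KD and 1.47, 1.30 and 1.42 in CTRL, so that CELF1 was the higher of the pair in every KD library and MBNL1 in every CTRL library. The ratio was 0.571 times as high in KD. The summed families did not change places. The MBNL sum stayed above that of CELF1 and CELF2, at 96.4 against 82.3 FPKM in KD and 113 against 79.2 FPKM in CTRL. Over the 6 ratios between paralogs or antagonists that were computed, an exact two-sided permutation test gave p = 0.1 for all but PTBP3 over PTBP1 (p = 0.3). With adjustment over the 6 ratios these became 0.12 and 0.3, and 0.1 is the smallest p that 3 against 3 libraries allow.

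**Figure D2:**
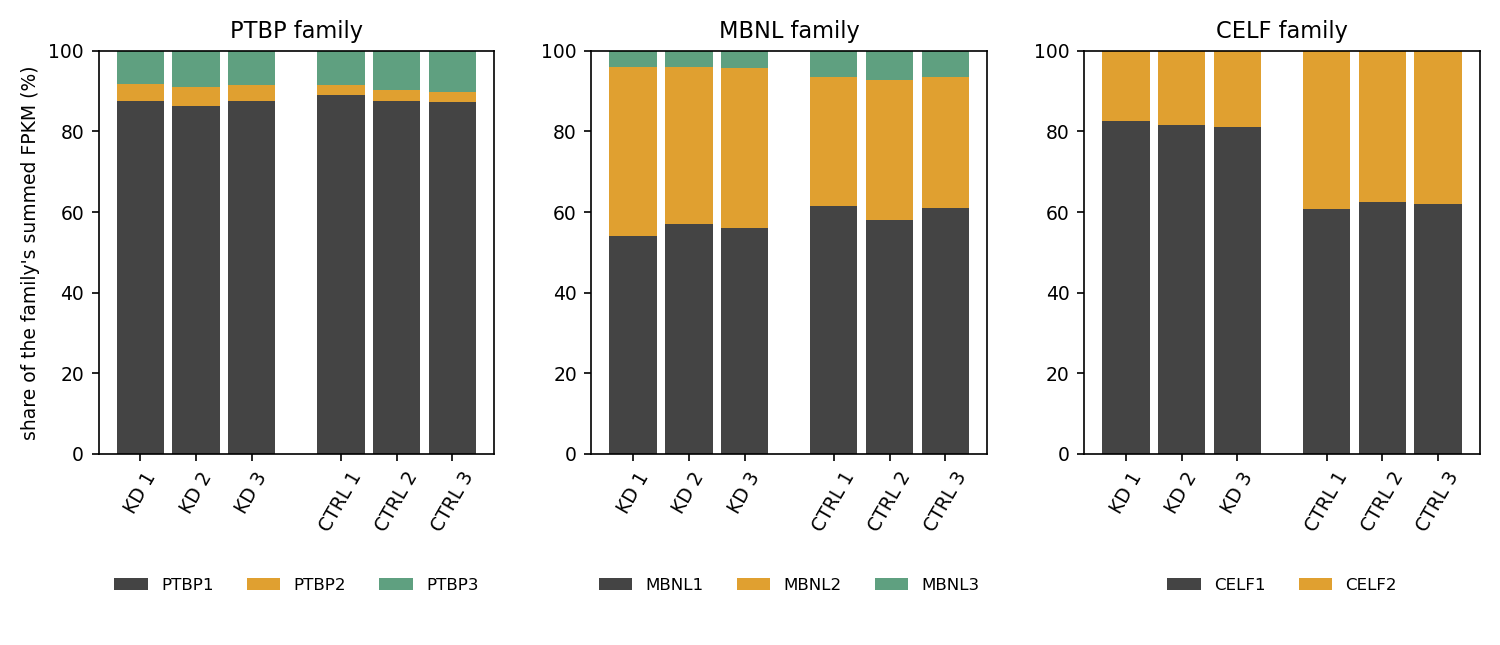
Share (%) of each family's summed FPKM held by each gene, in the 3 KD and 3 CTRL libraries. CELF2 holds 18.2% on average in KD and 38.2% in CTRL, whereas PTBP1 holds 87.1% in KD and 88% in CTRL.

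**Figure D3:**
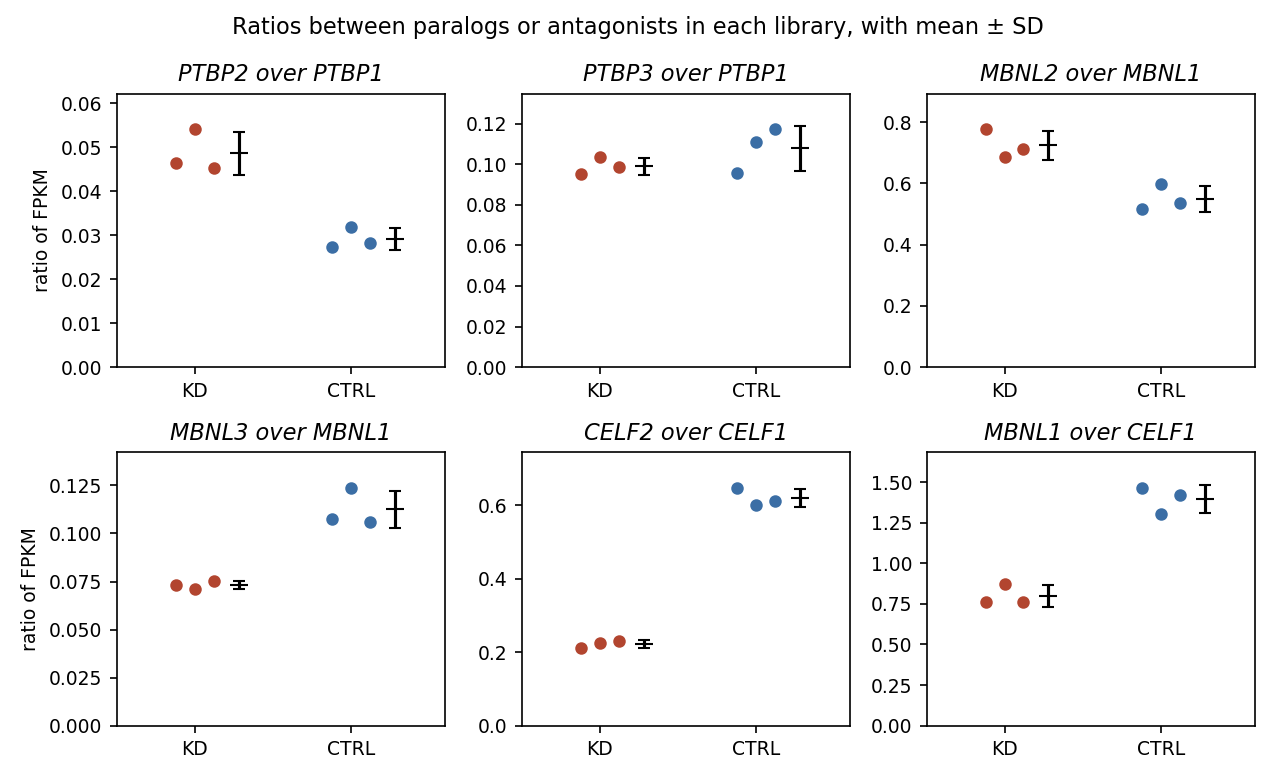
Ratio of the FPKM of 2 genes in each KD and CTRL library (points), with the mean and SD; axes start at 0. The groups overlap for PTBP3 over PTBP1 and are apart for the other 5 ratios, with CELF2 over CELF1 at 0.222 in KD and 0.620 in CTRL.

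RBFOX2, which favours exons when bound downstream of them, was at 40.5, 39.6 and 39.4 FPKM in KD and at 26.3, 26.9 and 26.8 FPKM in CTRL. Libraries within each group were tightly grouped. The mean rose 1.49-fold, to 39.8 ± 0.598 FPKM in KD against 26.7 ± 0.311 FPKM in CTRL (SD, n = 3 each), with a log2 change of 0.56 ± 0.04 (SE; limma adjusted p = 5.8e-06). RBFOX1 was listed at 0 in every library and RBFOX3 was under 0.2 FPKM, so RBFOX2 gave nearly all of the Fox signal in both groups.

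QKI, which controls splicing and circular RNA formation in mesenchymal cells, was the second most abundant of the 10. It was at 72.2, 71.9 and 66.0 FPKM in KD and at 75.6, 85.1 and 78.7 FPKM in CTRL. The groups did not overlap, though the gap between KD replicate 1 and CTRL replicate 1 was small. The mean fell to 70.1 ± 3.49 FPKM in KD against 79.8 ± 4.83 FPKM in CTRL, with a log2 change of -0.18 ± 0.06 (SE; limma adjusted p = 0.018). This call did not hold without KD replicate 3 (-0.14; limma adjusted p = 0.066) or without CTRL replicate 2 (-0.14; limma adjusted p = 0.057).

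**Figure D4:**
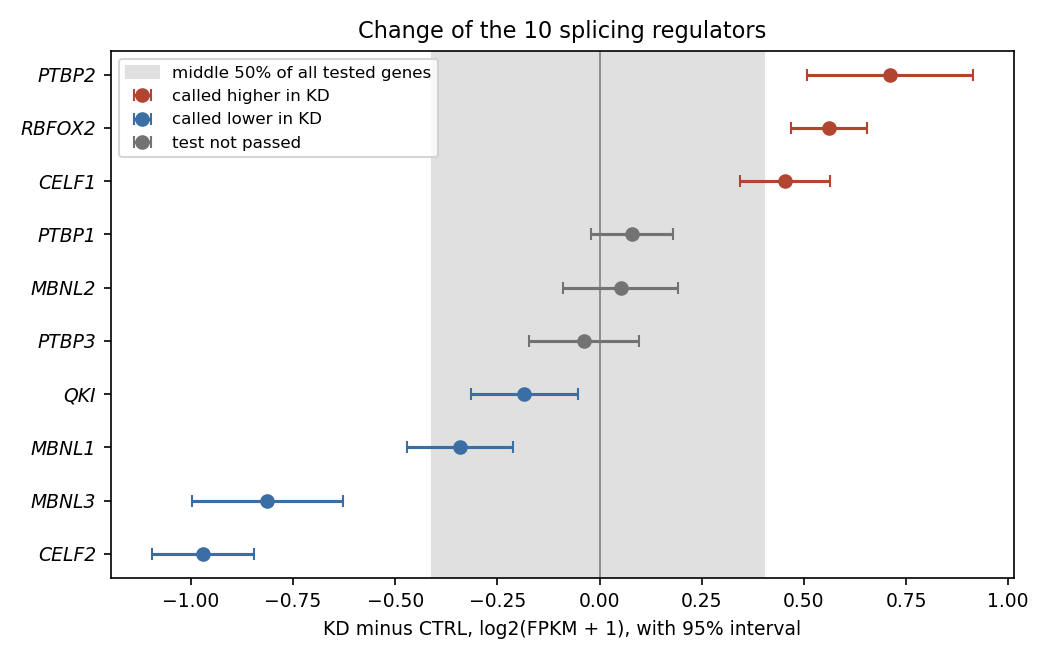
Change of each regulator (KD minus CTRL on log2(FPKM + 1), horizontal axis) with its 95% interval from the fit; the grey band holds the middle 50% of all tested genes. CELF2 (-0.97) and MBNL3 (-0.81) lie lowest and PTBP2 (0.71) and RBFOX2 (0.56) highest.

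The order of levels differed between the groups. In KD it was PTBP1, QKI, CELF1, MBNL1, RBFOX2, MBNL2, PTBP3, CELF2, PTBP2 and MBNL3. There the libraries of QKI and CELF1 overlapped, as did those of RBFOX2 and MBNL2. In CTRL it was PTBP1, QKI, MBNL1, CELF1, MBNL2, CELF2, RBFOX2, PTBP3, MBNL3 and PTBP2, with no overlap between neighbours. RBFOX2 thus stood above CELF2 in KD and under it in CTRL, and PTBP2 above MBNL3 in KD and under it in CTRL.

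Related genes were read from 3 lists. Of 24 other regulators known for tissue-biased splicing, 17 were under 1 FPKM on average, among them NOVA1, NOVA2, SRRM4 and ESRP2, and 5 of these were listed at 0 throughout. Of the 7 tested, 3 rose and 1 fell, while 3 missed the threshold; the median log2 change was 0.19, beside 0.01 for all tested genes, and 57.1% were called, beside 72.4% of all tested genes. ELAVL2, a neuronal Hu protein, rose to 1.80 ± 0.378 FPKM in KD against 0.787 ± 0.327 FPKM in CTRL. It counts among the 3 that rose, and in the median and the share called. Yet it met the filter of 1 FPKM on average only through its KD values, so all of these figures depend in part on that selection. ESRP1, the epithelial splicing regulator, rose to 31.5 ± 0.596 FPKM in KD against 23.8 ± 0.236 FPKM in CTRL. KHDRBS3, a STAR protein related to QKI, fell to 46.5 ± 1.21 FPKM in KD against 64.7 ± 4.4 FPKM in CTRL. The limma adjusted p was 0.010 for ELAVL2, 5.5e-05 for ESRP1 and 9.7e-05 for KHDRBS3.

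Cofactors comprised partners or competitors of PTB proteins and components of the assembly that Fox proteins bind. Of 15 tested, 9 fell and 3 rose, while 3 missed the threshold. The median log2 change was -0.15, and 80% were called, beside 72.4% of all tested genes. This higher share did not hold without KD replicate 3. There 3 of the 15 were higher and 7 lower, beside 4689 and 4470 of all 13343 genes. RAVER1, a corepressor of PTBP1, fell to 13.4 ± 0.862 FPKM in KD against 21.3 ± 0.272 FPKM in CTRL (limma adjusted p = 2.2e-05). HNRNPC, which binds uridine tracts, fell to 190 ± 3.11 FPKM in KD against 311 ± 5.53 FPKM in CTRL (limma adjusted p = 6.1e-07). DDX17, an RNA helicase, rose to 304 ± 11.8 FPKM in KD against 212 ± 3.65 FPKM in CTRL (limma adjusted p = 7.4e-06).

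Genes known to contain exons that these proteins switch were read as gene sums. Of 26, 25 were tested; 14 rose and 8 fell, and the remaining 3 missed the threshold. The median log2 change was 0.19, and 88% were called beside 72.4% of all tested genes. This higher share did not hold without KD replicate 1. There 11 of the 25 were higher and 6 lower, beside 4582 and 4548 of all 13343 genes. BIN1, a membrane-bending protein with muscle and brain forms, was at 25.2, 24.6 and 27.1 FPKM in KD and at 10.8, 10.4 and 10.2 FPKM in CTRL, a 2.45-fold rise (limma adjusted p = 6.0e-07). CTNND1, the p120 catenin, rose 2.13-fold to 122 ± 3.54 FPKM in KD against 57.2 ± 1.12 FPKM in CTRL. NUMB, an inhibitor of Notch signalling, rose 2.10-fold to 29.9 ± 1.24 FPKM in KD against 14.2 ± 0.713 FPKM in CTRL. The limma adjusted p was 2.2e-07 for CTNND1 and 1.5e-06 for NUMB.

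**Figure D5:**
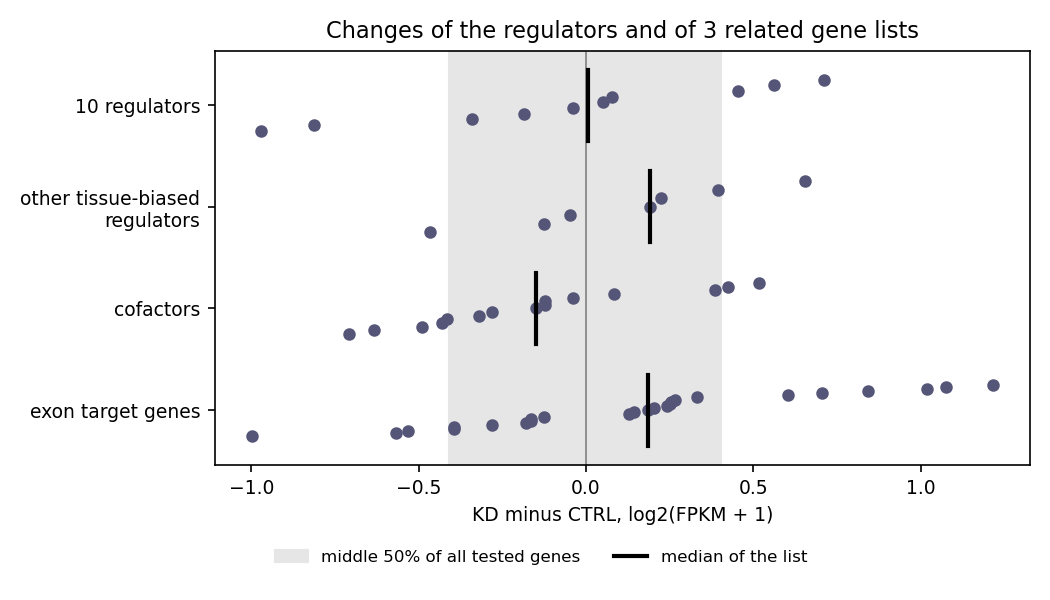
Change (KD minus CTRL on log2(FPKM + 1), horizontal axis) of each tested gene, as points, for the 10 regulators and the 3 lists, with each list's median as a bar and the middle 50% of all tested genes in grey. The medians are 0.01 for the regulators, 0.19 for the other regulators, -0.15 for cofactors and 0.19 for exon target genes. The other regulators include ELAVL2, which met the filter only through its KD values.

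The genes whose levels followed PTBP2 and CELF2 most closely were ranked by Pearson's r over the 6 libraries among 10224 other genes averaging 5 FPKM or more. Closest to PTBP2, the largest rise, were MAT2A, which makes S-adenosylmethionine, NIPBL, the cohesin loader, and IFIH1, a sensor of double-stranded RNA, each with r of 0.998 to 0.999. NIPBL was at 22.8, 26.8 and 22.8 FPKM in KD and at 14.7, 15.8 and 13.3 FPKM in CTRL, highest in replicate 2 of each group as PTBP2 was. Closest to CELF2, the largest fall, were SARM1, an NAD-cleaving enzyme of axon degeneration, ARNT2, a bHLH-PAS transcription factor, and TIMP3, a metalloprotease inhibitor, with r of 0.9995 to 0.9998. TIMP3 was at 10.2, 11.3 and 11.6 FPKM in KD and at 23.8, 24.7 and 24.1 FPKM in CTRL. An r above 0.95 was reached by 1896 genes for PTBP2 and by 2596 for CELF2, since the libraries fall into 2 groups.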

How the data were processed

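Libraries were prepared with a poly(A)-selecting stranded kit from 1 ug of RNA and read as paired ends of 100 bases, per the labels' protocols. The authors deposited FPKM values, 1 column per library, per the file headers. The submitters' processing notes name hg19, Cuffdiff 2.2.0 and TopHat 1.4.1. The sources used here do not give the annotation, the strand setting or whether libraries were scaled to each other, so reads shared with overlapping genes cannot be separated. Without absolute depth, no counting intervals can be given. The table's 1 blank row was left out.

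The 6 columns were matched by name to the 3 KD and 3 CTRL titles. Genes averaging 1 FPKM or more were fitted as log2(FPKM + 1) with limma 3.58.1 in R 4.3.3 (empirical Bayes with a mean-variance trend, two-sided, Benjamini-Hochberg adjustment, threshold 0.05). This scale understates changes of weak genes; folds quoted are ratios of mean FPKM. The fit was tested on simulated data. Ratios of 2 genes used an exact two-sided permutation test.

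The regulators, the lists and the ratios were chosen with earlier results of these data known. Named genes are all 10 regulators, antisense and pseudogene rows, the largest called rise of each list and the 2 called genes with the largest absolute change among its others, family relatives, and the 3 genes most correlated with the largest rise and the largest fall; genes sharing a regulator's listed locus, and further list members under 1 FPKM, were named after their values were seen. HNRNPLL was matched by its Ensembl ID. Exon sequences came from GENCODE 29 (GRCh38), whose coordinates were not used with those of the table. The fit was repeated without each library, with the replicate number as a block, with quality weights per sample, with medians scaled to be equal, with a pseudocount of 0.1, and with the filter dropped or raised to 5 FPKM.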

Additional observations from a re-analysis of the deposited data

How the results depend on the processing

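All alternatives were planned. The regulators kept their signs in every refit, and 8 of the 10 kept their side of the threshold; PTBP1 passed without CTRL replicate 1, and QKI missed the threshold without KD replicate 3 or CTRL replicate 2. Leaving out 1 library gave 3 to 4 regulators higher and 3 to 4 lower. Among the other tissue-biased regulators, 1 to 2 were lower, the second being RBM20 without KD replicate 3, and 2 to 4 were higher. Without 1 library, 3 cofactors were higher and 7 to 9 lower. For the exon target genes these counts were 11 to 14 higher and 6 to 9 lower. The log2 difference of MBNL3 over MBNL1 became -0.47 rather than -0.62 with a pseudocount of 1 FPKM on both genes, which shrinks the weaker gene. Median scaling moved the median of all genes to 0.04, beside 0.01. The replicate block called 3 regulators higher and 4 lower, and 4971 genes higher and 4773 lower in all. Under the block MSI2, TIAL1 and MAP3K7 passed the threshold in addition. Deviations from the group means correlated at -0.03, -0.07 and 0.02 between libraries of the same number, and the labels do not say that numbers pair libraries. No count model was run, since the table holds no counts; depth is unknown, so no limit can be given for genes listed at 0.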

Other observations

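Some genes already counted in the lists or markers above were picked for naming here after their values had been seen. DLG4, a postsynaptic scaffold gene whose transcript PTBP proteins are known to send to decay by exon skipping, was at 3.30, 3.28 and 3.49 FPKM in KD and at 1.89, 1.85 and 1.31 FPKM in CTRL, a rise with a limma adjusted p of 0.00071. GABBR1, known for the same kind of control in mouse cells, averaged 8.92 FPKM in KD and 10.2 FPKM in CTRL and did not pass (limma adjusted p = 0.089). ESRP1, known from epithelia, was above 23 FPKM in every library, while its paralog ESRP2 averaged 0.202 FPKM in KD and 0.215 FPKM in CTRL, and the epithelial cadherin CDH1 was at 1.57, 1.20 and 1.61 FPKM in KD and at 2.48, 1.84 and 1.84 FPKM in CTRL.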
